A study of Mus musculus with 4 samples.

Results

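Luminal cells in S phase are taken here as luminal epithelial cells whose transcripts mark DNA copying; DNA content was not measured. They were picked out of single-cell RNA sequencing of mouse mammary organoids by their transcripts, and 340 of the 33268 cells in the 4 matrices were members. A member had at least 1000 detected genes, under 5% mitochondrial counts, and an antibody tag at least 3 times its next tag. It also had under 300 CPM (counts scaled to a total of 1000000 per cell) of Krt14, the basal keratin, and under 300 CPM of Areg, a hormone-induced growth factor of HR+ luminal cells. The sum of Hist1h1b, Clspn and Mcm6 had to reach 200 CPM, while the sum of the mitotic genes Cenpf, Ccnb2, Cdc20 and Birc5 stayed under 100 CPM. Of 23079 cells that passed the quality limits, 18389 were luminal by the Krt14 and Areg limits. The comparison cells, called low luminal cells, met the same limits except that the 3-gene sum was under 50 CPM, and numbered 13791.

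The organoids were grown from mammary epithelial cells of aged virgin female mice, either wild type or Brca2mut/WT. The latter carry a germline truncating mutation in 1 copy of Brca2, in every cell and under no tissue promoter, and their controls were wild-type littermates. Organoids were left untreated (control) or given hydroxyurea (HU), as day-long pulses followed by days of recovery and repeated over passages. Per the methods, organoids for sequencing had been frozen, and were thawed, reseeded and grown for some days before dissociation. The methods name no HU in that last culture. Each of the 4 combinations is 1 library, so no condition has a replicate library and no test between conditions was made. Both wild-type libraries held 76 S-phase cells and both Brca2mut/WT libraries 94. Their gene UMIs (unique molecules) summed to 3353047 (control) and 2664244 (HU) in wild type and to 3746535 and 4230172 in Brca2mut/WT. The labels give 2 replicates per library and the methods an early and a late passage, and cells carry 4 antibody tags whose key was not used here. The 4 tag pools are therefore given as unlabelled pools, not as replicates. Of cell barcodes, 129 occurred in more than 1 library, and none of the shared barcodes was an S-phase cell in both.

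Before S phase, licensing factors load the MCM helicase on origins of replication. In S phase the helicase is switched on, polymerases copy the strands around the PCNA clamp, ribonucleotide reductase supplies deoxynucleotides, and new histones are made and deposited behind the fork. E2F transcription factors switch on many of these genes at the G1/S border. HU inhibits ribonucleotide reductase and stalls forks, and BRCA2 protects stalled forks and takes part in recombination repair. In the mammary gland, HR- luminal cells lack hormone receptors and include the alveolar progenitors, while HR+ luminal cells sense oestrogen and progesterone.

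The 3 genes of the rule were measured as follows, as a description only, since the members were chosen by them. Mcm6, a subunit of the MCM helicase, was at 161, 159, 169 and 180 CPM in the summed S-phase cells of the 4 libraries (in the order wild type untreated and HU, then Brca2mut/WT untreated and HU, for every set of 4 values here). Clspn, a mediator of the fork checkpoint, was at 76.9, 79.9, 98.2 and 96.0 CPM, and Hist1h1b, a linker histone, at 114, 130.2, 75 and 83.4 CPM. By these sums Hist1h1b was lower in both Brca2mut/WT libraries than in both wild-type libraries, and Clspn was higher there. Per-cell medians of Hist1h1b were 30.2, 64.1, 32.3 and 30.9 CPM, so that order did not hold for medians. Those of Clspn were 60.4, 50.8, 64.4 and 71.8 CPM. The rule sets a floor on the sum of the 3 genes, so their levels in members are not independent. A Hist1h1b UMI was found in 69.7, 71.1, 66.0 and 70.2% of S-phase cells and in 8.48, 10.2, 9.83 and 14.4% of low luminal cells. All 3 genes were detected in 168 members, 2 of them in 117 and only 1 in 55. At the threshold, 43 members had sums between 200 and 220 CPM and 63 cells just outside had sums between 180 and 200 CPM. The sum rested on 1 UMI in 7 members and on fewer than 3 in 13.

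Members fell into differing mixtures of the 3 transcripts. Hist1h1b made up at least 50% of the sum in 65 cells (16, 16, 14 and 19 by library), Mcm6 in 200 cells (47, 41, 55 and 57), and neither in 75. Across the 340 cells, Spearman's rho was -0.464 between Hist1h1b and Mcm6, -0.103 between Hist1h1b and Clspn and 0.095 between Clspn and Mcm6. The rho values are descriptions over cells that share libraries, depth and a floor on the sum of the same genes.

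**Figure D1:**
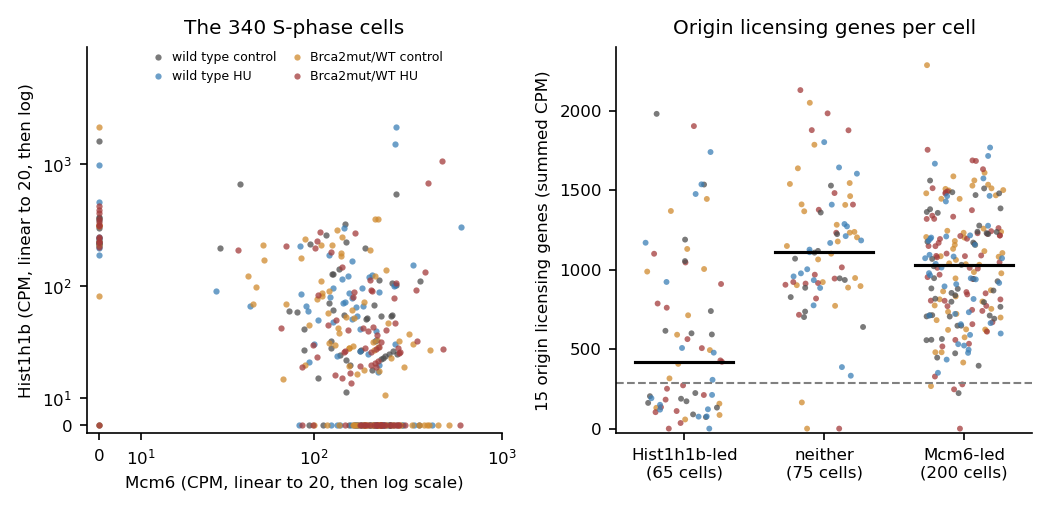
Left, Hist1h1b against Mcm6 in each of the 340 S-phase cells, in CPM on axes that are linear up to 20 CPM and logarithmic above, coloured by library; right, the summed CPM of 15 origin licensing genes in the 65 cells led by Hist1h1b, the 200 led by Mcm6 and the other 75, with medians as bars and the 95th percentile of low luminal cells (286 CPM) dashed. Many cells led by Hist1h1b hold no Mcm6 UMI, and 36 of the 65 lie above the dashed line against 195 of the 200 led by Mcm6.

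The S-phase label was checked with 15 origin licensing genes that the rule did not use. Their sum per cell had a median of 972 CPM in members (quartiles 662 and 1237) and of 110 CPM in low luminal cells. In all, 303 of 340 members (89.1%) lay above the 95th percentile of the low luminal cells, with 67, 68, 87 and 81 by library. Of the 37 members at or under that percentile, 29 were led by Hist1h1b, 5 by Mcm6 and 3 by neither. Members not led by Hist1h1b were thus above it in 267 of 275 cases and those led by Hist1h1b in 36 of 65. For the 29 others led by Hist1h1b, these 15 genes go against the S-phase label, which in this check rests there on the rule's genes alone. Other S-phase genes were not examined in those 29 cells separately.

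The luminal label was checked against markers of each lineage. HR- luminal markers summed to 24984, 20703, 21623 and 22343 CPM in S-phase cells and to 5492, 4270, 4528 and 4225 CPM in cells above the Krt14 limit. Csn3 alone gave 17558, 14689, 15530 and 16077 CPM of the S-phase sums. Elf5, Kit, Mfge8, Lalba, Csn3 and Wfdc18 were higher in S-phase cells than in cells above either limit in every library. Ltf was lower than above the Krt14 limit in every library, and Aldh1a3 was lower than above the Areg limit. Cd14 differed in direction between libraries. The luminal set of Krt8, Krt18, Krt19, Epcam, Cldn3 and Cldn4 summed to 4678, 4765, 4843 and 5059 CPM in S-phase cells. It summed to 3220, 3156, 3866 and 3471 CPM above the Krt14 limit and to between 13443 and 16833 CPM above the Areg limit. Against cells above the Krt14 limit, Krt8, Krt18, Epcam and Cldn3 were higher in every library, while Krt19 and Cldn4 were lower. The 8 HR+ markers summed to 173, 150, 150 and 167 CPM and the 8 basal markers to 143, 154, 169 and 71.6 CPM. These sums contain Areg and Krt14, which the rule limits, and the cells above the Krt14 limit were also set by the rule, so part of the check is fixed by the selection. Without Areg the other 7 HR+ markers summed to 161, 139, 147 and 161 CPM, and to between 4354 and 6278 CPM in cells above the Areg limit. The 7 basal markers other than Krt14 summed to 52.2, 66.1, 136 and 44.7 CPM in S-phase cells, and to between 3131 and 3505 CPM above the Krt14 limit. Immune and adipocyte markers had 0 UMIs in all S-phase cells, and fibroblast markers summed to between 3.0 and 6.1 CPM. By most HR- markers and by low HR+ and basal sums, the members were HR- luminal cells. They were chosen under a limit that leaves out cells high for the HR+ gene Areg.

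In wild type, S-phase cells made up 1.45% of luminal cells untreated (95% Clopper-Pearson interval 1.14 to 1.81) and 1.78% with HU (1.41 to 2.23). The shares in Brca2mut/WT were 2.02% (1.63 to 2.47) and 2.22% (1.80 to 2.71). Intervals of neighbouring values overlapped, and those of the lowest and highest touched, with counting error alone covered. After every cell was thinned to 10000 UMIs, which left out 480 shallower cells, the shares were 2.85, 2.70, 2.81 and 3.32%, all with overlapping intervals. The order of the libraries was not the same after thinning, and the cause was not tested. The rule's expression limits were applied anew to the thinned counts, where a single UMI of a mitotic gene reaches the mitotic limit. Cells over that limit at full depth could thus become members, so thinned and full shares come from unlike gates. Tag pools spread more widely than libraries: 1.06, 3.19, 0.985 and 2.43% in wild-type control pools 1 to 4, and 2.07, 3.30, 1.36 and 1.82% in Brca2mut/WT HU. Pool 2 held 43.6% of the S-phase cells but 25.3% of the low luminal cells of Brca2mut/WT control, and 45.7% against 24.6% in Brca2mut/WT HU.

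**Figure D2:**
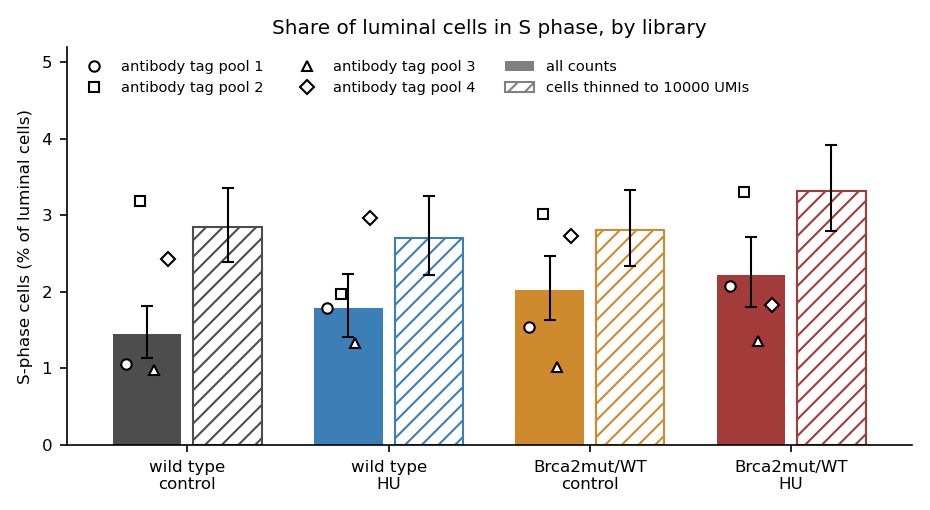
Share of luminal cells in S phase (y axis, percent) in the 4 libraries, as deposited (filled bars) and with each cell thinned to 10000 UMIs (hatched bars), with 95% Clopper-Pearson intervals as error bars and the 4 antibody tag pools of each library as open symbols for the unthinned share. Filled bars run from 1.45 to 2.22% and hatched bars from 2.70 to 3.32%, and pools of a single library run from 0.985 to 3.19% in wild-type control.

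Depth moved with membership. S-phase cells had a median of 36485.5, 33717.5, 35510.5 and 40871 UMIs, and low luminal cells 26945.5, 27469, 28854 and 34151. More than 6000 genes were detected in 44.7, 38.2, 39.4 and 60.6% of S-phase cells and in 17.1, 16.7, 22.3 and 33.5% of low luminal cells. No upper limit on genes and no doublet caller was applied beyond the tag ratio. The part of doublets in the results below was not tested. The mitotic limit also shaped the group: 1045 further luminal cells reached 200 CPM of the 3 genes but not the mitotic limit, which is 79.2, 75.2, 74.5 and 72.6% of all cells at or above 200 CPM.

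Against low luminal cells of their own library, S-phase cells had higher levels of most replication genes. Of 9541 genes with at least 5 CPM over all luminal cells, 617 (6.47%) were at least 1.5-fold higher in S-phase cells in all 4 libraries and 107 (1.12%) at least 1.5-fold lower. Under TMM scaling the counts were 480 and 181, with a shift of -0.12 in the median log2 ratio of all genes. The median log2 ratio of all genes was 0.06, with 1 CPM added to each level. This contrast contains the rule, so it is a description of the chosen cells with no test, and errors given are the SD over the 4 libraries. Lists of genes by role are read beside 6.47% and 1.12%. The filter runs over all luminal cells, so 170 of the 9541 genes passed it although they were under 5 CPM in the low luminal cells of every library. Such genes had to be high in cycling cells, so counts and medians over a list describe the chosen cells and support nothing. Without these 170 genes 481 of 9371 (5.13%) were higher and 107 lower.

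**Figure D3:**
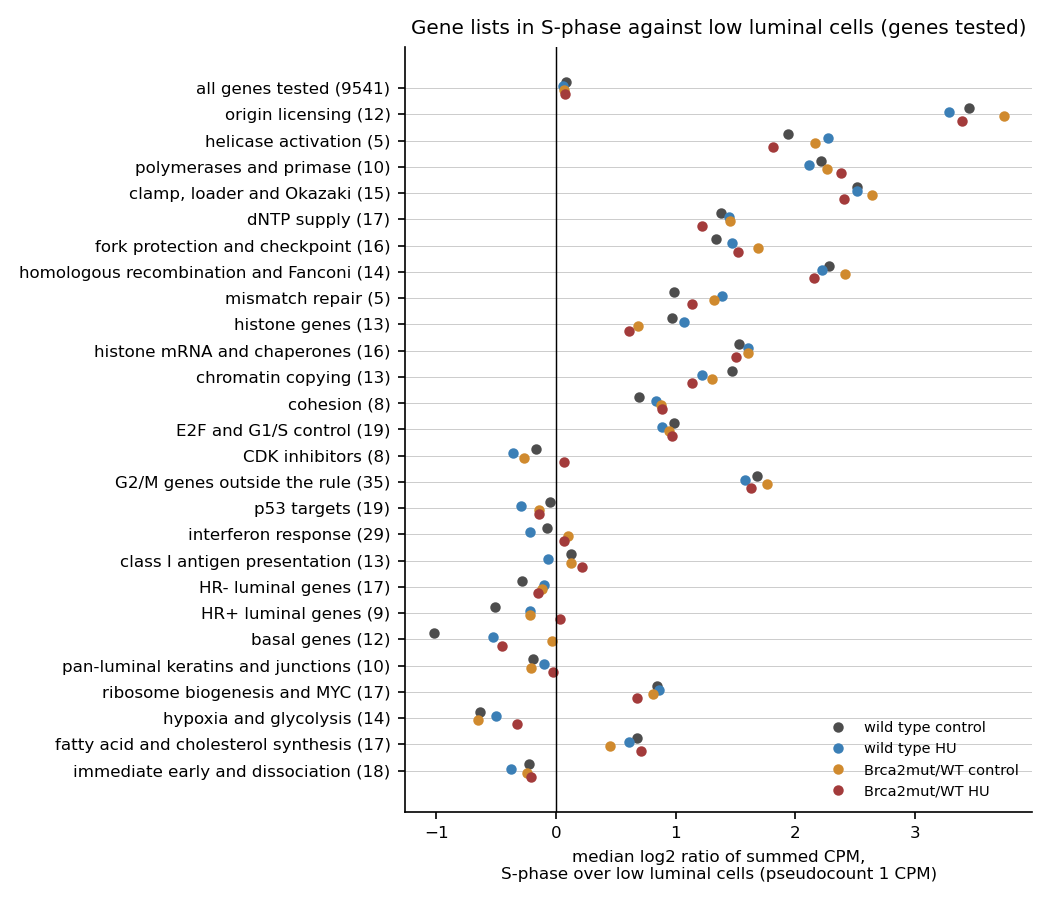
Median log2 ratio of summed CPM in S-phase over low luminal cells (x axis, 1 CPM added) for each list of genes (y axis, with the number of genes tested), 1 point for each of the 4 libraries. Origin licensing lies farthest to the right, with a median of 3.52 over its genes, most lists of lineage and stress genes lie near 0, and hypoxia and most basal values lie to its left.

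To set a sequence feature beside these levels, promoters were searched on both strands for the letters TTTNNCGC, of the kind E2F factors bind. RefSeq promoters (GRCm38.p6, 250 bases before to 50 after the start) matched 7733 of the 9541 genes tested. The motif stood in 10.8% of these, in 23.7% of the 506 matched genes higher in S-phase cells and in 9.96% of genes not called. Among matched genes of the 7 lists for replication and repair it stood in 26 of 75 (34.7%), and among G2/M genes in 1 of 30 (3.33%). In these shares a gene counted when any of its promoters matched. Over all 32851 RefSeq promoters, counted singly, the share was 5.17%, a unit unlike that of the gene shares. Of the 15 genes with the highest ratios 6 held the letters and 9, Rrm2 among them, did not. Windows from 4 leading genes, picked among those with a match, show how the letters lie, with the motif in capitals and each sequence read along the strand of its gene, 39, 48, 141 and 54 bases before the start in turn. The Mcm5 match is in reverse orientation. A match describes letters, and no binding was measured.
Mcm6, chr1:128359734-128359763 (-): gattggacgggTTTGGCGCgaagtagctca
Uhrf1, chr17:56303270-56303299 (+): gccccacttgcTTTCTCGCttcccgccaca
Mcm5, chr8:75109349-75109378 (+): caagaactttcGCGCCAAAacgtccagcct
Hells, chr19:38930917-38930946 (+): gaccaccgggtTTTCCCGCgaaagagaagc

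Origin licensing genes had the highest median of the lists. Of 15 origin licensing genes 12 passed the filter, and 10 were higher with a median log2 ratio of 3.52. Without the 3 of them under 5 CPM in the low luminal cells of every library, 7 of 9 were higher with a median of 2.25, below the 2.64 of helicase activation and the 2.47 of clamp and loader genes. Mcm3, a subunit of the helicase ring, was at 119, 139, 158 and 150 CPM in S-phase cells and at 4.30, 4.59, 4.64 and 5.14 CPM in low luminal cells, a mean log2 ratio of 4.65 ± 0.13 (SD, n = 4). The S-phase and low levels did not overlap, and neither did those of Mcm5 (4.72 ± 0.16) and Mcm2 (4.09 ± 0.21). Gmnn, the inhibitor that keeps origins from firing again, was at 124, 123, 149 and 137 CPM against 10.7, 10.8, 10.4 and 9.76 CPM. Cdc6, an MCM loader chosen here after its values were seen, missed the 5 CPM filter but was at 41.2, 38.3, 41.1 and 42.6 CPM against under 1 CPM. Of 14 genes that switch the helicase on, 5 passed the filter and all 5 were higher, among them Gins2, a subunit of the active helicase (2.64 ± 0.17).

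The copying machinery was higher almost without gaps. All 10 polymerase and primase genes tested were higher, with a median log2 ratio of 2.27, and so were all 15 tested genes for the clamp, its loader and Okazaki fragments, with 2.55. Of the polymerase and primase genes 5 were under 5 CPM in low luminal cells of every library, and the median of the other 5 was 1.27. Pcna, the sliding clamp, was at 199, 212, 241 and 256 CPM against 26.8, 25.8, 25.9 and 28 CPM, a log2 ratio of 3.04 ± 0.15. All 4 S-phase levels lay above all 4 low levels. Prim1, the catalytic primase subunit (4.00 ± 0.10), and Lig1, which seals Okazaki fragments (4.04 ± 0.12), followed the same order.

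Nucleotide supply was higher in 14 of 17 genes tested, with a median log2 ratio of 1.37. Rrm2, the regulated subunit of ribonucleotide reductase, had the largest mean ratio of all called genes outside the rule's own. It was at 169, 149, 171 and 188 CPM in S-phase cells and at 3.97, 3.86, 3.48 and 5.74 CPM in low luminal cells, a log2 ratio of 5.03 ± 0.19. Its S-phase levels lay close together, HU libraries included. Dut, which keeps uracil out of DNA, was at 181, 200, 203 and 208 CPM against 39.2, 41.0, 40.0 and 41.0 CPM.

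Fork protection and repair genes were higher in part of their lists. Of 16 tested fork and checkpoint genes 10 were higher (median 1.52), led by Chek1, the checkpoint kinase (4.48 ± 0.25), and Timeless, of the fork protection complex (4.15 ± 0.21). Leaving out 4 genes under 5 CPM in low luminal cells of every library gave 6 of 12 and a median of 0.97. Of 32 homologous recombination and Fanconi genes 14 passed the filter and 9 were higher (median 2.29). Of these 14, 8 were under 5 CPM in the low luminal cells of every library, and of the other 6 only 1 was higher (median 0.25). Brca1 was at 29.8, 32.7, 35.5 and 38.5 CPM in S-phase cells against under 1 CPM in low luminal cells (4.29 ± 0.15). Brca2, the mutated gene of the study, was at 28.6, 30.4, 26.7 and 25.1 CPM against 3.70, 4.04, 2.95 and 3.4 CPM, a log2 ratio of 2.67 ± 0.10. Its levels in S-phase cells were a little lower in both Brca2mut/WT libraries than in both wild-type libraries, within the range of the 16 tag pools (12.3 to 53.4 CPM). Counts of the whole gene do not tell transcripts of its 2 alleles apart. Of 5 tested mismatch repair genes 4 were higher (median 1.30).

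Histone genes gave a mixed picture. Of 26 listed histone genes, Hist1h1b not among them, 13 passed the filter, 7 were higher and 1, Hist3h2a, was lower. Without the 65 cells led by Hist1h1b, 3 were higher and 2 lower, and the median log2 ratio went from 0.81 to 0.46. Among cells with at most 6000 genes the counts were also 3 and 2, with a median of 0.69. With the filter applied in low luminal cells, 4 of 10 were higher and 1 lower (0.52). Most histone genes are near-identical copies whose transcripts end without a poly(A) tail, so their counts are uncertain. H2afz, a histone variant expressed outside S phase too, was at 1128, 1158, 1273 and 1199 CPM against 359, 362, 385 and 379 CPM. Genes that process histone transcripts or assemble chromatin were higher in 15 of 16 cases (median 1.54), among them Nasp, a histone chaperone (2.76 ± 0.08), and Hells, a chromatin remodeller (4.39 ± 0.17). Of 13 genes that copy chromatin marks or bind chromatin 10 were higher, led by Uhrf1, which brings DNA methylation to new strands (4.77 ± 0.13). The same filter left 13 of 14 and 7 of 10 in these lists, with medians of 1.05 and 0.87. For sister chromatid cohesion the count was 5 of 8, where 1 of the 5 was Chaf1b, a chromatin assembly subunit that also stands in the chaperone list.

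Among regulators of G1/S, 11 of 19 tested genes were higher (median 0.96), or 6 of 14 (0.54) without those under 5 CPM in low luminal cells of every library. E2f1 was at 41.8, 39.4, 55.8 and 44.0 CPM against 1.68, 1.41, 1.97 and 1.83 CPM, and Tfdp1, its partner, at 63.2, 65.7, 60.9 and 70.4 CPM against 17.1, 17.3, 16.6 and 18.4 CPM. The D-type cyclin Ccnd1 was already at 809.7, 946, 974 and 950.0 CPM in low luminal cells and at 1307, 1249.5, 1649 and 1546 CPM in S-phase cells, and was not called in all 4 libraries. Of 8 inhibitors of cyclin-dependent kinases none was higher, and 1, Cdkn2b, was lower. Cdkn1a, a p53 target among them, was at 191, 146, 230 and 216 CPM against 199, 289, 284 and 323 CPM, so that its S-phase levels were the lower ones in every library.

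Mitotic genes outside the rule were higher than in low luminal cells in 30 of 35 cases (median 1.56), although the rule limits 4 other mitotic genes. Of the 35, 23 were under 5 CPM in the low luminal cells of every library, and 10 of the other 12 were higher. To place the cells in the cycle, they were set beside 1195 luminal cells with at least 200 CPM of the 4 mitotic genes and under 100 CPM of the 3 S-phase genes. Of all genes tested, 162 (1.70%) were higher in S-phase than in mitotic luminal cells and 185 (1.94%) lower in all 4 libraries, again a contrast that holds the rule. Of the 35 mitotic genes 31 were lower, while 9 of 12 licensing genes were higher. Top2a, which untangles DNA, was at 98.4, 79.6, 103 and 89.1 CPM in S-phase cells, between 4.86 and 6.35 CPM in low luminal cells, and at 143, 182, 169 and 130 CPM in mitotic cells. Pclaf, a PCNA partner, was at 146, 157, 151 and 123 CPM in S-phase cells and higher, between 228 and 306 CPM, in mitotic cells, whereas Pcna itself was between 44.1 and 54.1 CPM there. Top2a, Pclaf and H2afz were thus lowest in low and highest in mitotic cells, while Mcm3, Timeless, Brca2, Rrm2 and Pcna were highest in S-phase cells.

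**Figure D4:**
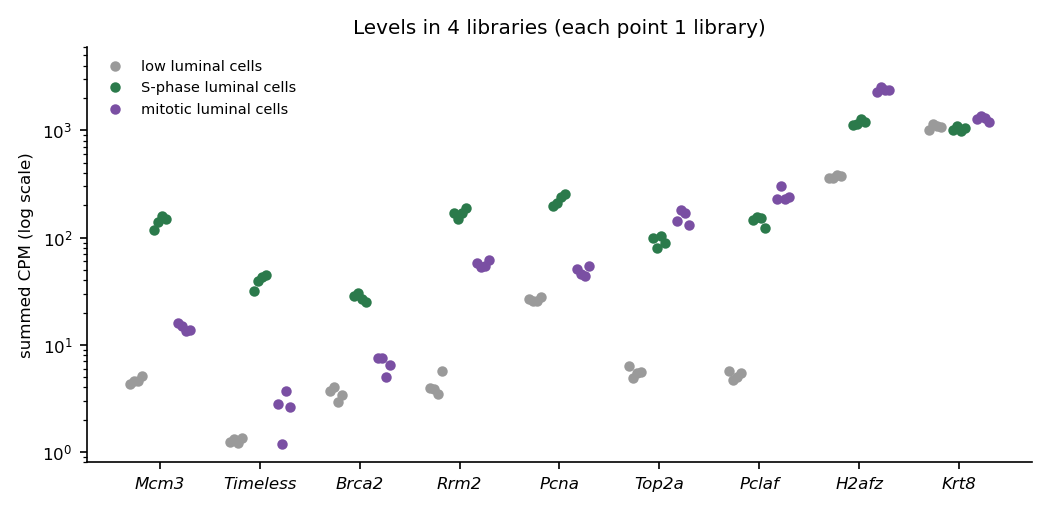
Summed CPM (y axis, log scale) of 9 genes in low, S-phase and mitotic luminal cells, each point 1 of the 4 libraries. Mcm3, Timeless, Brca2, Rrm2 and Pcna are highest in S-phase cells, Top2a, Pclaf and H2afz are highest in mitotic cells, and Krt8 lies between 980.1 and 1355 CPM in all of them.

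Lineage and stress genes had few calls against low luminal cells. No gene of 17 tested for HR- luminal cells was called in either direction (median -0.19), nor of 10 pan-luminal genes (-0.12), 12 basal genes (-0.56) or 19 p53 targets (-0.12). Under TMM scaling 2 HR-, 2 pan-luminal and 1 basal gene were lower, and no p53 target was. Csn3, kappa-casein, was at 17558, 14689, 15530 and 16077 CPM in S-phase cells against 20257, 18033, 17195 and 17804 CPM. Elf5, the alveolar transcription factor, was at 97.2, 163, 126 and 144 CPM against 95.4, 128, 105 and 117 CPM. With no limit on the size of the difference, 6 of the 17 HR- genes were lower in every library and 1 was higher in every library. Mfge8, a milk fat globule protein, was at 3230, 3125, 2725 and 2542 CPM against 4759, 4325, 3747 and 3769 CPM, and Krt19, a pan-luminal keratin, at 92.2, 167, 59.5 and 163 CPM against 229, 292, 222 and 240 CPM (both named after their values were seen). Krt19 was more than 1.5-fold lower in 3 of the 4 libraries, as was Cd14 of the HR- list. Of 29 interferon response genes 1 was higher, the DNA sensor Cgas (chosen after its values were seen, and under 5 CPM in the low luminal cells of every library), and of 13 class I antigen presentation genes none was. Of 9 HR+ genes 1, Ly6d, was lower (3 under TMM scaling), and of 18 immediate early genes 1, Junb, was lower. Junb was not called with low cells weighted to the S-phase tag pools, nor among cells with at most 6000 genes. None of 17 genes marking stromal, endothelial, immune or fat cells passed the filter.

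Growth genes differed in part. Of 17 tested genes for ribosome biogenesis 9 were higher (median 0.81), among them Ncl, nucleolin, at 660, 824, 702 and 725 CPM against 390, 412, 400 and 454 CPM. Among cells with at most 6000 genes 5 of the 17 were higher. Of 17 genes of fatty acid and cholesterol synthesis 7 were higher (median 0.54), among them Elovl6, Insig1 and Fdps, but 3 under TMM scaling and 1 among cells with at most 6000 genes. Of 14 hypoxia and glycolysis genes 4 were lower (Car9, Bnip3, Ankrd37 and Adm, named after their values were seen), but 1 with low cells weighted to the S-phase tag pools and 1 among cells with at most 6000 genes. Among the 10 lowest ratios, Hp, haptoglobin, was at 1.49, 1.13, 1.60 and 1.65 CPM in S-phase cells against 31.5, 28.7, 22.3 and 16.4 CPM, and Slpi, a protease inhibitor, at 68.3, 49.9, 70.7 and 31.9 CPM against 280, 309, 133 and 147 CPM. On the mean log2 scale Ly6d was at -2.45, Slpi at -1.93, Spp1, osteopontin, at -1.87 and Ndrg1, a gene of the low oxygen response, at -1.77.

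The cells led by Hist1h1b differed from those led by Mcm6 beyond the 3 genes that split them. Summed within libraries, 45 genes (0.472%) were at least 1.5-fold higher in all 4 libraries in the cells led by Hist1h1b and 28 (0.293%) lower. These counts describe groups cut from the rule's own genes, with 14 to 19 cells led by Hist1h1b in a library. Other histone genes stood on the higher side in 8 of 13 cases. Hist1h2ap, a core histone gene, was detected in 47.7% of cells led by Hist1h1b and in 24.5% of those led by Mcm6, and Hist1h2ae in 38.5 and 9%. On the lower side were Mcm3, Timeless, Brca2, Dtl and Chek1. Mcm3 was detected in 38.5% of cells led by Hist1h1b against 97.5%, Dtl in 40.0 against 86.5%, and Brca2 in 29.2 against 61.0%. The cells led by Hist1h1b were also shallower, with a median of 22950 UMIs against 36485.5. They included cells rich in Sparc, Apoe and Spp1, where 1 cell gave 42.9% of the Apoe UMIs. The genes of this split were named after their values were seen, and the part of depth in it was not tested.

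The study asked how HU and the Brca2 mutation alter organoid cells, and the S-phase cells of the 4 libraries were set against each other on that question. A gene was called when its summed level differed at least 1.5-fold and the exact Poisson 95% intervals of both counts lay apart, which covers counting error only. The 4 contrasts share libraries and are not independent. HU against control called 145 genes higher (1.52%) and 254 lower (2.66%) in wild type, and 118 higher (1.24%) and 83 lower (0.870%) in Brca2mut/WT. Brca2mut/WT against wild type called 152 higher (1.59%) and 101 lower (1.06%) in control, and 423 higher (4.43%) and 136 lower (1.43%) in HU. Under TMM scaling the last 3 contrasts gave 80 and 99, 108 and 118, and 281 and 182, so that the balance of directions depended on scaling. Pools with at least 20 S-phase cells, 2 or 3 in a library, also lay apart for 80 (0.838% of genes tested) and 131 (1.37%) of the genes called with HU in wild type, and for 53 (0.555%) and 22 (0.231%) in Brca2mut/WT. For Brca2mut/WT over wild type they did so for 62 (0.650%) and 35 (0.367%) in control and for 279 (2.92%) and 87 (0.912%) in HU. With 1 library a condition, culture, passage and library cannot be told apart from HU or genotype.

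Replication genes had few calls across the conditions. No origin licensing gene of 12 was called in any of the 4 contrasts, with median log2 ratios of 0.07 and -0.05 for HU in wild type and Brca2mut/WT and of 0.27 and 0.04 for Brca2mut/WT over wild type in control and HU. Of 14 tested recombination and Fanconi genes, Fancc was lower with HU in wild type and Rmi1 was higher in Brca2mut/WT than in wild type in control. Brca2 was called in none. Of 19 p53 targets, 1, 1, 0 and 2 were higher in the order of contrasts above, and 1 was lower, in the last. The lower gene was Aen, a nuclease, also the gene that was higher with HU in wild type. All these counts are small against lists of this size, as the background shares above are.

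Interferon response genes had the most calls of any list in Brca2mut/WT over wild type with HU, and these calls came and went with tag pool 2. In Brca2mut/WT over wild type, 10 of 29 interferon genes were higher in control and 19 of 29 in HU, and 1 of 13 class I genes in control and 10 in HU (the H2-Q genes among them are near-identical copies). With HU in wild type, 5 interferon genes (Ifi27l2a, Xaf1, Gbp7, Ifitm3 and Trim30a) and 2 class I genes (H2-Q6 and H2-Q7) were lower. All 7 were also called higher in Brca2mut/WT HU over wild-type HU, a contrast that shares the wild-type HU library. Isg15, an antiviral ubiquitin-like protein, was at 564, 682, 898 and 911 CPM in S-phase cells, and B2m, the class I light chain, at 2369, 1747, 3005 and 3344 CPM. Both genes were thus higher in the Brca2mut/WT than in the wild-type libraries. By pool, the 29 interferon genes summed to 14815 CPM in pool 2 of Brca2mut/WT HU and to between 2627 and 6825 CPM in its other pools, and to 13054 CPM against 6645 to 7926 CPM in Brca2mut/WT control. In wild-type control pool 2 was also the highest (9118 against 5178 to 7355 CPM), and in wild-type HU the pools were close (6259 against 5671 to 5760 CPM). Without pool 2 of Brca2mut/WT HU, 1 of 29 interferon genes and 0 of 13 class I genes were higher than in wild-type HU, and all calls went from 423 and 136 to 168 and 150. Against Brca2mut/WT control, 21 interferon and 9 class I genes were then lower, where with that pool 1 and 0 had been higher. Without pool 2 of Brca2mut/WT control, 3 interferon genes were higher than in wild-type control.

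The pool difference was not particular to S phase. In low luminal cells, pool 2 summed to 11062, 7799, 14039 and 16600 CPM for the interferon genes, and the other pools to between 5744 and 9457 CPM. Pool 2 is also the pool with the most S-phase cells in both Brca2mut/WT libraries, and its S-phase cells in Brca2mut/WT HU had a median of 47581 UMIs. With pools weighted equally, 7 interferon and 3 class I genes were higher in Brca2mut/WT HU than in wild-type HU, and among cells with at most 6000 genes 2 and 2. What pool 2 stands for in each library was not used here, so mouse, passage and condition cannot be told apart. Origin licensing genes summed to 1062 CPM in pool 2 of Brca2mut/WT HU and 718 to 904 CPM in its other pools, and to 969 against 970 to 987 CPM in Brca2mut/WT control. In low luminal cells pool 2 was the highest for them in every library, at 141, 134, 137 and 164 CPM against 109 to 140.2 CPM over the other pools.

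**Figure D5:**
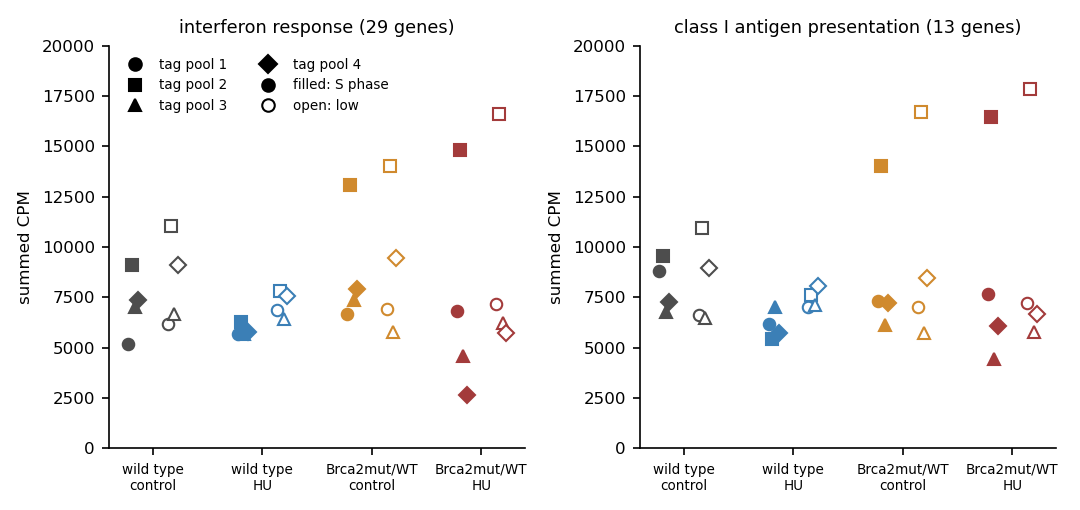
Summed CPM (y axis, from 0) of 29 interferon response genes (left) and 13 class I antigen presentation genes (right) in each antibody tag pool (symbols) of the 4 libraries, for S-phase cells (filled) and low luminal cells (open). Pool 2 stands above the other pools in both Brca2mut/WT libraries, at 13054 and 14815 CPM for interferon genes in S-phase cells, and its low luminal cells lie at 14039 and 16600 CPM.

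Among single genes whose pools lay apart, Thrsp, a regulator of fat synthesis, was at 61.4, 141, 155 and 188 CPM in S-phase cells and at 61.6, 128, 138 and 190 CPM in low luminal cells, so that wild-type control was the low library in both. Tspan8, a tetraspanin, was at 178, 70.6, 174 and 188 CPM in S-phase cells, low in wild-type HU, and at 127, 107, 159 and 168 CPM in low luminal cells. Saa1, an acute phase protein, was at 6.86 CPM in Brca2mut/WT HU against 84.5 CPM in wild-type HU (log2 -3.44). Mgp, a matrix protein, was at 364 against 1340.0 CPM (-1.88). On the higher side of that contrast were Fetub (3.44), Tmigd1 (3.23), Grrp1 (2.97) and Sez6 (2.76), whose log2 ratios in low luminal cells were 2.43, 3.01, 1.03 and 3.32. Without pool 2 of Brca2mut/WT HU, the S-phase ratios of Tmigd1 and Sez6 were -0.94 and -1.95.

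Within genotypes, HU libraries differed in other genes. In wild type, 5 of 17 HR- luminal genes were higher with HU (Elf5, Lalba, Ltf, Cldn1 and Thrsp) and 3 lower (Wfdc18, Trf and Tspan8), while 5 of 18 immediate early genes, among them Jun and Atf3, were lower and 1, Hspa1b, higher. In Brca2mut/WT no HR- luminal gene was called. In wild type, Spp1 was at 920 CPM with HU and 205 CPM in control, but only at 152 to 192 and 56.2 to 58.9 CPM in the pools with at least 20 S-phase cells, while pools 2 and 4 of the HU library, with fewer cells, were at 1389.7 and 2222 CPM. Among cells with at most 6000 genes the log2 ratio of Spp1 was -0.21. Lmod1, an actin-binding protein, was at 6.01 against 85.0 CPM and Cd38 at 0.375 against 5.37 CPM. In pools with at least 20 S-phase cells Lmod1 ran from 2.80 to 2.87 CPM with HU and from 7.03 to 67.5 CPM in control. Cd38 ran there from 0 to 1.43 and from 2.81 to 3.80 CPM, and its summed HU level was under the 1.13 CPM that 3 UMIs give. In Brca2mut/WT, Abca1, a cholesterol exporter, was at 11.8 CPM with HU and 2.67 CPM in control, and Gadd45g, a stress-induced gene, at 24.8 against 8.01 CPM. Il33, a cytokine, was at 1.18 against 9.34 CPM and Vcan, a matrix proteoglycan, at 2.60 against 14.1 CPM. In the control pools with at least 20 S-phase cells Il33 ran from 1.13 to 17.8 CPM, the highest in pool 2, and Vcan from 4.45 to 32.5 CPM, while the HU pools ran from 0.911 to 1.08 and from 0.911 to 4.31 CPM. For Il33 and Vcan the low luminal cells of both libraries were level (log2 0.00 and 0.04). In control libraries, Brca2mut/WT cells had 14.1 CPM of Vcan against 3.28 CPM in wild type and 13.6 CPM of Ly6d against 44.4 CPM.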

How the data were processed

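Per the labels and the methods, frozen mouse mammary organoids were thawed, reseeded in Matrigel, grown for some days and dissociated with TrypLE. Their cells were stained with antibody tags and sequenced on the 10x Genomics platform, 1 library for each of 4 conditions. The authors deposited UMI counts per gene and cell, made with Cell Ranger. The submitters' processing notes name Cell Ranger 6.0.2, Seurat 4.0, R 4.1.3 and mm10. Totals over genes were 302135155, 258821284, 243430259 and 258118001 UMIs. Counts were read as deposited, scaled to CPM (a total of 1000000 per cell) over gene features, gated by the rule, and summed over cells per library. Levels and log2 ratios (1 CPM added) were taken from the sums, for genes with at least 5 CPM over all luminal cells. Intervals are exact Poisson or Clopper-Pearson intervals at 95%, for counting error only. No p-value was computed, as no condition has a second library. The 27 gene lists (474 of 476 genes matched, Chaf1b, Cdc25a, Cdkn1a and Btg2 each standing in 2 lists) and the members were chosen with earlier results of these data known. Named were the rule's genes, up to 4 genes of each list by S-phase level, the 15 highest and 10 lowest ratios, and 4 genes per direction and contrast. Further genes, such as Cdc6, Cdkn2b, Hist3h2a and Junb, were named after their values were seen. Some genes that the rule names are not reported here. The computing steps were tested on simulated data. Alternatives covered scaling, filters, thresholds, depth, pools and libraries left out in turn. Python 3.11.15, NumPy 2.4.6, SciPy 1.17.1, pandas 2.3.3, Matplotlib 3.10.9 and edgeR 4.0.16 (TMM factors only) in R 4.3.3 were used. Antibody counts served only to assign each cell's tag.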

Additional observations from a re-analysis of the deposited data

Results flagged for a closer look

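A library apart from the other 3 was looked for in 74 sets of 4 values, of which 4 stood out by Dixon's ratio at its 95% critical value, and chance alone picks about 1 in 20 such sets. The log2 ratio of Uhrf1 in S-phase over low luminal cells was 4.58 in wild-type HU and 4.81 to 4.85 in the other libraries. For Gm13889, with no UMI in the S-phase cells of either HU library, it was -0.85 in wild-type control and -2.52 to -2.24 in the others, values that depend on the 1 CPM added. For Top2a it was 4.03 in Brca2mut/WT control and 3.76 to 3.79 in the others. The median ratio of the 18 immediate early genes was -0.38 in wild-type HU and -0.24 to -0.21 in the others.

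In S-phase cells, 8 genes were called in opposite directions with HU in wild type and Brca2mut/WT, and 11 for Brca2mut/WT over wild type in control and HU. Atf3 and Sparc are described as the 1 gene of each set that the rule for named genes picks. Atf3, a stress-induced transcription factor, was called in opposite directions with HU in S-phase cells, with log2 ratios of -1.61 in wild type and 1.23 in Brca2mut/WT, from 44.4, 13.9, 8.81 and 22.0 CPM in the 4 libraries. Sparc, a matrix protein, was called in opposite directions for Brca2mut/WT over wild type, with 0.67 in control and -0.68 in HU. In Brca2mut/WT control, 1 cell gave 66 of the 67 Sparc UMIs of the cells led by Hist1h1b, and 10 of the 55 cells led by Mcm6 gave 99. Neither difference between the ratios was tested, since each condition has 1 library.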

How the results depend on the processing

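Of 617 higher and 107 lower genes in S-phase over low luminal cells, cells with at most 6000 genes gave 314 and 45, a 20 CPM filter 326 and 51, a 2-fold threshold 294 and 22. The lower genes numbered 70 by the mean of per-cell CPM, 181 under TMM, 58 with 5 CPM added and 67 with low cells weighted to the S-phase tag pools. Leaving out 1 library in turn gave 659 to 686 higher and 126 to 163 lower genes, the last without Brca2mut/WT HU.

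Calls in either direction numbered 399 and 201 for HU in wild type and Brca2mut/WT, and 253 and 559 for Brca2mut/WT over wild type in control and HU. In that order, thinning to 10000 UMIs gave 151, 102, 139 and 207, and a 2-fold threshold 149, 66, 95 and 229. Cells with at most 6000 genes gave 186 and 330 for the HU contrasts and 218 for the last. A 20 CPM filter gave 95, 158 and 357 for the last 3, per-cell means 463 and 483 for the second and the third, and equal pool weights 432 for the second. Leaving out 1 tag pool gave 305 to 494, 202 to 703, 264 to 466 and 318 to 835 calls, the 703 and 318 without pool 2 of Brca2mut/WT HU, the 835 without its pool 3 and the 466 without pool 2 of Brca2mut/WT control. With at most 6000 genes, Spp1 (-0.21) turned to lower with HU in wild type. For Brca2mut/WT HU over wild-type HU, leaving out 1 pool gave log2 ratios of -0.94 to 4.49 for Tmigd1 and -1.95 to 5.87 for Sez6, the lowest without pool 2 of Brca2mut/WT HU.

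S-phase shares, in the order of the libraries, were 0.591, 0.657, 1.05 and 1.35% at a 300 CPM threshold, 2.85, 2.70, 2.81 and 3.32% after thinning, and 6.98, 7.21, 7.93 and 8.11% with no mitotic limit. With at most 6000 genes they were 1.05% in wild-type control and 1.48% in Brca2mut/WT HU. Leaving out 1 pool gave 1.24 to 1.70, 1.64 to 2.07, 1.61 to 2.39 and 1.74 to 2.59%. The cause of these shifts was not tested. The alternatives on the filter in low luminal cells, tag pools, equal weights and cells led by Hist1h1b were chosen after seeing the data.

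No paired analysis was possible because the key from antibody tags to the 2 labelled replicates of each library was not used here, so control and HU cells could not be matched by mouse, although the methods divide the organoids of a mouse group among conditions; ratios of S-phase over low luminal cells were themselves taken within each library. With 76 to 94 S-phase cells a library, counting error alone limits genes of a few CPM, and members resting on fewer than 3 UMIs may be misplaced.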
